A study of Malus domestica with 36 samples.

Results

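Peel of 'Granny Smith' apples held at low oxygen was compared with and without the tag SL, in the storage regime DCA_CF at the time T1. The compared members were 3 libraries titled T1_DCA_CF_SL and 3 titled T1_DCA_CF, which are 6 of the 36 libraries of the series. Genes that reached 1 FPKM in 3 or more of the 36 libraries were tested, which left 32923 of 57423 genes. FPKM is a level per length of transcript and per depth of library. The series follows superficial scald during storage and crosses 3 regimes with 2 times and with the presence or absence of SL, with 3 biological replicates in each of 12 groups. The SL group and the group without SL shared cultivar, tissue, time and regime, and the labels give less than 1% oxygen for DCA. The other regimes are ULO, at 1% oxygen, and RA, which the labels do not expand. What SL and CF stand for, and how long T1 and T2 lasted, is not given in the sources used here. The labels name no age or orchard of the fruit, and whether each replicate was 1 apple or a pool is not given.

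Superficial scald is a storage disorder in which apple skin turns brown while the flesh stays sound. Its development is tied to the oxidation of alpha-farnesene, a volatile sesquiterpene made in the peel by the synthase AFS1, and to polyphenol oxidase (PPO), which turns phenols into brown quinones once cell compartments break down. Storage at low oxygen slows respiration and ethylene production, and induces genes of fermentation and of oxygen sensing. Lipoxygenases add oxygen to polyunsaturated fatty acids and so feed the synthesis of aroma volatiles and of jasmonates.

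Summed values were 733058 to 734947 FPKM in the SL libraries and 689868 to 694154 FPKM in the libraries without SL, within 689868 to 790211 FPKM over the series. Between 36084 and 36242 genes were above 0 in the SL libraries, and between 35061 and 35453 in the libraries without SL. Replicates lay close together, with a median coefficient of variation of 4.04% in the SL group and 3.77% in the group without SL for genes at 10 to 100 FPKM. At 1 to 3 FPKM the medians were 15.2% with SL and 14.8% without. Read totals were not used here, so depth is unknown and no counting interval is given. Only 4 genes taken as markers of peel tissue types carry a name in the table. They are 3 for the cuticle (ACBP2, MdGDSL and GPAT) and the rubisco activase rca for photosynthesis. All 3 cuticle genes were present in all 6 libraries, and no level is given for rca. Without libraries of another tissue, their presence could not tell peel from other tissue, so the label peel was not checked.

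Before any result, the 3 SL libraries stood apart in one respect. Genes that were at 20 FPKM or more in T1_RA and under 2% of that level in each of 7 other low oxygen groups were taken without use of the SL libraries of DCA_CF at T1, which gave 165 genes. Over these genes the level in T1_DCA_CF_SL was a near constant share of the level in T1_RA, with a median of 0.188, quartiles of 0.18 and 0.196, and 5% and 95% points of 0.164 and 0.213. The relation held over T1_RA levels of 20.3 to 3893 FPKM. The library medians were 0.187 in SL a, 0.191 in SL b and 0.188 in SL c. A low level without SL was a condition of the choice of these genes. With T1_DCA_CF left out of that condition, its median share was 0.00162 over 170 genes, and the other low oxygen groups, left out in the same way, had medians of 0.00432 or less. Against T1_RA_SL the share was scattered, with quartiles of 0.0943 and 0.316 over 63 genes.

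**Figure D1:**
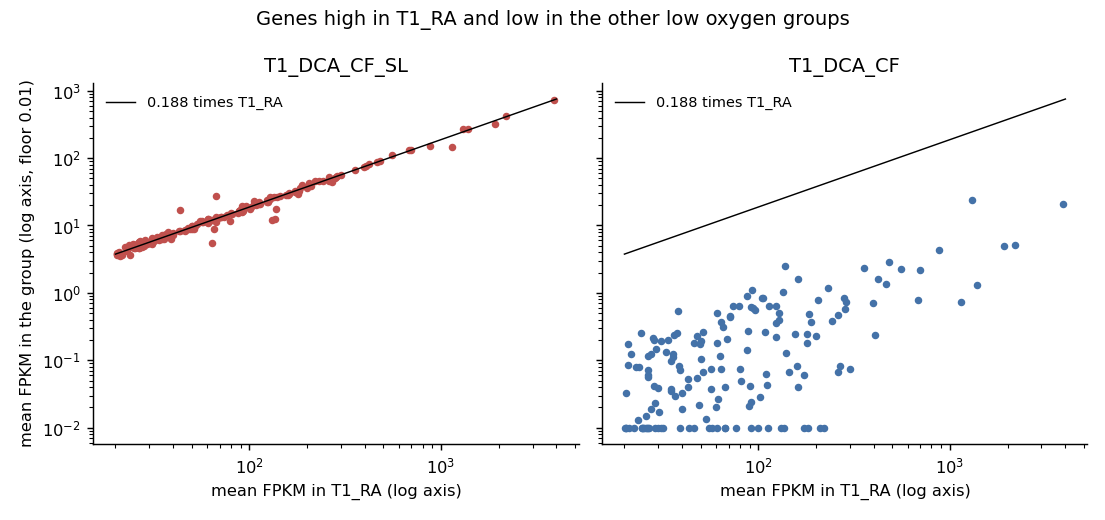
Mean FPKM in T1_DCA_CF_SL (left panel) and in T1_DCA_CF (right panel) against mean FPKM in T1_RA, on log axes, for 165 genes that were high in T1_RA and low in the other low oxygen groups. Points are genes and the line is 0.188 times T1_RA. With SL nearly all points sit on the line, and the points without SL lie below it, as the choice of the genes required.

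The share had a lower edge among genes at large. Of 6248 genes at 20 FPKM or more in T1_RA, 506 had a ratio of T1_DCA_CF_SL to T1_RA from 0.16 to 0.22, and 17 had one from 0.1 to 0.16. A ratio under 0.15 was found for 27 of the 6248 genes in T1_DCA_CF_SL, 591 in T1_DCA_CF and 924 in T1_ULO_SL. Whether RNA or reads of T1_RA are present in the SL libraries was not tested, and a mixture cannot be told apart here from peel that expressed this profile itself. Results were therefore computed as deposited and again after 0.188 times the T1_RA mean was taken off each SL value and the rest divided by what remained of the library. That second value is called the share-subtracted value, and its use was chosen after the data were seen. Its standard errors, p-values and counts of calls take the share and the T1_RA mean as fixed. They therefore leave out the error of both. The share-subtracted value stands beside counts of calls and beside the genes it changed most, and values with no such mark are as deposited. PPO, OSC4, MdACS-5A, CWI and PR1a, described below, are among the 165 genes whose median set the share. As a set those genes centre on the share by construction. Their SL levels are therefore no separate support for it.

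As deposited, 12176 genes (37%) rose and 9805 genes (29.8%) fell with SL at an adjusted p under 0.05. Adjusted p here and below is from limma on log2(FPKM + 1), adjusted over the 32923 genes by the method of Benjamini and Hochberg. Among these, 4314 genes (13.1%) rose and 3061 genes (9.3%) fell by at least 2-fold. The median change over all genes was 0.07 on the log2 scale. Share-subtracted, 10905 genes (33.1%) rose and 10991 genes (33.4%) fell, and 4015 (12.2%) and 4157 (12.6%) did so by at least 2-fold. The median of all genes was then 0. Of the 4314 genes that rose by 2-fold as deposited, 3795 (88%) still rose, 344 no longer passed the test and 175 passed it in the other direction. Of the 3061 that fell by 2-fold, 3054 (99.8%) still fell and 7 no longer passed. In 578 of the 4314 genes the T1_RA share equalled 80% or more of the SL level. Changes are on the log2(FPKM + 1) scale, which understates those of low genes, and in whole peel fewer cells of a type and less RNA per cell cannot be told apart.

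The lipoxygenases LOX5b and LOX5a had the largest rises among named genes. Of 13 measured lipoxygenases, 6 rose, 4 fell and 3 did not pass the test, beside 37% higher and 29.8% lower over all genes. Their median change was 0.16, against 0.07 over all genes. LOX5a (LOC103438366) was at 1248, 1269 and 1275 FPKM with SL, against 20.7, 18.6 and 19.5 FPKM without. Its level was thus high in every SL library and low in every other, a log2 change of 5.94 ± 0.05 (SE; limma adjusted p = 2.07e-33, n = 3 each). LOX5b (LOC103418601) was at 420, 445 and 429 FPKM with SL and at 0.565, 0.543 and 0.636 FPKM without. That is a log2 change of 8.09 ± 0.40, the largest of any named gene, and the groups did not overlap. The T1_RA share equalled 0.568% of the SL level of LOX5a and 0.0254% of that of LOX5b, as neither was high in T1_RA. LOX6b (LOC103422578) averaged 38.8 ± 1.00 FPKM with SL and 3.01 ± 0.10 FPKM without. Here and below, ± after a mean FPKM is the SD over 3 libraries, and ± after a log2 change is the SE. LOX1a, LOX8b and LOX6a rose by 1.58, 1.64 and 1.39 on the log2 scale. LOX1a was at 578 ± 3.26 FPKM with SL and 193 ± 3.44 FPKM without.

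The other called lipoxygenases fell. LOX2a (LOC103449741) averaged 14.8 ± 0.61 FPKM with SL and 50.8 ± 0.96 FPKM without, a log2 change of -1.71, or -2.61 share-subtracted. LOX1c (LOC103433949) averaged 10.5 ± 0.63 FPKM with SL and 32.4 ± 0.33 FPKM without, and 89.9% of its SL level equalled the T1_RA share. The log2 change of LOX1c was -1.54 as deposited and -3.92 share-subtracted. LOX3a was listed at 0 in all 3 SL libraries and averaged 2.13 ± 0.17 FPKM without SL. The summed level of the 13 genes was 2381 FPKM with SL and 330 FPKM without. Share-subtracted, 6 rose and 5 fell, with all 6 rises and all 4 falls kept. The reads of LOX5a and LOX5b could be shared if their sequences are close, which was not tested.

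**Figure D2:**
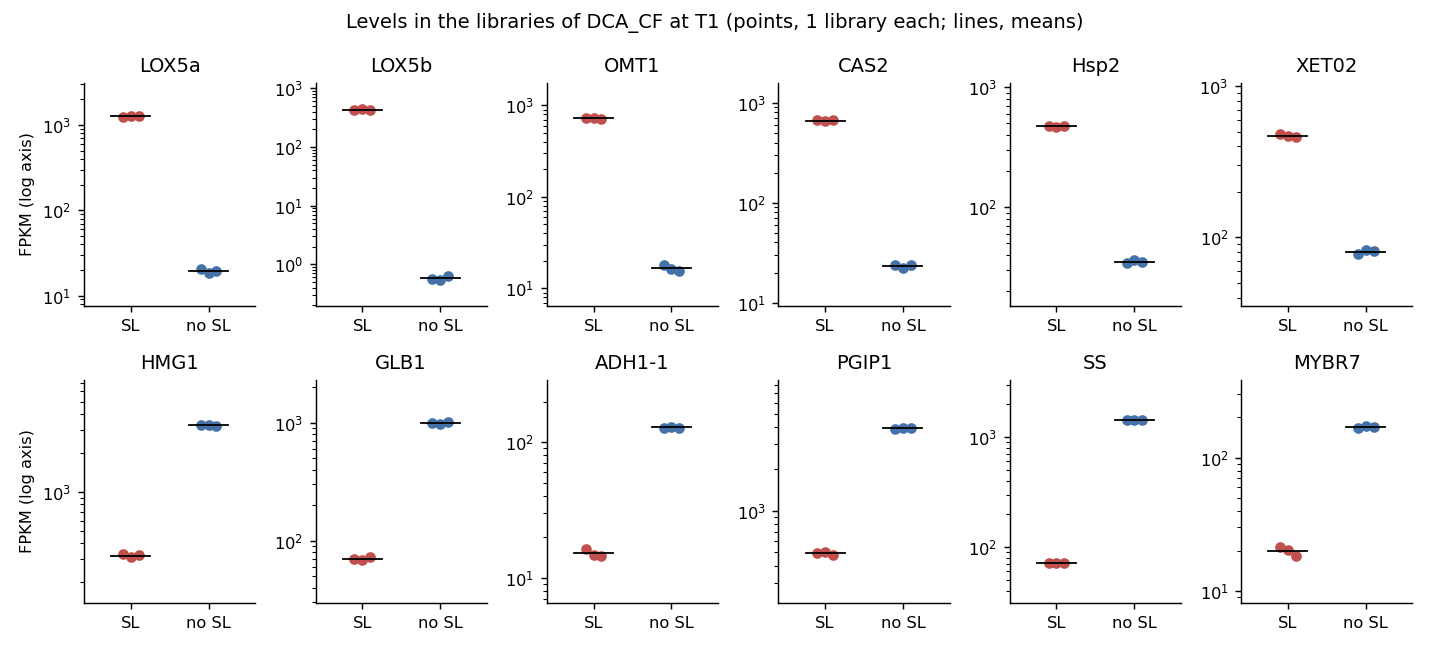
FPKM on log axes in the SL libraries (red, left in each panel) and the libraries without SL (blue) of DCA_CF at T1, for 6 genes that rose and 6 that fell. Points are libraries and lines are means of 3. Genes were picked for large changes, so the gap between groups is no finding; LOX5a sits at 1248 to 1275 FPKM with SL and 18.6 to 20.7 FPKM without.

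Genes of early isoprenoid synthesis and of oxidosqualene cyclases, which close the ring of triterpenes and sterols, were measured for 8 members with AFS1. Of these 4 fell, 2 rose and 2 did not pass, both as deposited and share-subtracted, beside 29.8% lower and 37% higher over all genes. The median was -0.41 as deposited and -0.84 share-subtracted. HMG1 (LOC103410649) codes for HMG-CoA reductase, which controls entry into the mevalonate pathway. It was at 328, 311 and 324 FPKM with SL and at 3290, 3297 and 3266 FPKM without. The groups lay far apart, with a log2 change of -3.35 ± 0.03 (limma adjusted p = 1.03e-32) and of -4.03 share-subtracted. HMG2 averaged 7.26 ± 0.15 FPKM with SL and 42.0 ± 1.52 FPKM without. The share-subtracted change of HMG2 was -3.41, against -2.38 as deposited. Cyclases OSC1 and OSC3 fell by 1.60 and 1.11 on the log2 scale, and by 2.27 and 1.63 share-subtracted.

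AFS1 (LOC103446592), which makes alpha-farnesene from the farnesyl diphosphate of this pathway, rose. It was at 791, 794 and 776 FPKM with SL and at 367, 352 and 368 FPKM without, a log2 change of 1.12 ± 0.03 (limma adjusted p = 3.15e-23). The share-subtracted change was 1.19. Of the SL level of AFS1, 14.8% equalled the T1_RA share. OSC4 (LOC103443364) was at 15.5, 18.3 and 21.0 FPKM with SL and at 0, 0 and 0.0727 FPKM without. The T1_RA share equalled 94.5% of that SL level, and the log2 change of 4.23 came to 1.19 share-subtracted.

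PPO was at 272, 266 and 268 FPKM with SL and at 23.9, 25.4 and 23.3 FPKM without. As deposited the log2 change was 3.42 ± 0.05 (limma adjusted p = 5.66e-29), with no overlap of the groups. PPO averaged 1308 FPKM in T1_RA, whose share equalled 91.5% of the SL level, and PPO was among the genes that set the share. With the share taken as fixed, the share-subtracted change was 0.20 ± 0.06 (limma adjusted p = 0.00483). It was -4.16 when the share was taken 1.1 times as large. The direction of PPO thus changed with the size of the share taken off.

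Among genes of ethylene synthesis, the most abundant one fell. ACO1 (LOC103446762), the ACC oxidase that makes ethylene, was at 7857, 7716 and 7677 FPKM with SL and at 13366, 13458 and 13357 FPKM without. It fell by 0.79 on the log2 scale, and by 0.97 share-subtracted. ACS1, an ACC synthase, was at 17.0 ± 0.74 FPKM with SL and 17.4 ± 1.11 FPKM without, a log2 change of -0.03 ± 0.06 that did not pass the test (limma adjusted p = 0.742). MdACS-5A (LOC103411726) averaged 11.2 ± 0.56 FPKM with SL and 0.0205 ± 0.04 FPKM without, but its SL level equalled the T1_RA share and its share-subtracted change of 0.24 did not pass (limma adjusted p = 0.0926). Of the 6 genes of synthesis, 2 rose and 1 fell as deposited, beside 37% higher and 29.8% lower over all genes. None rose and 2 fell share-subtracted, beside 33.1% and 33.4%.

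Of 12 genes of ethylene perception and signalling, 5 rose, 3 fell and 4 did not pass, beside 37% higher and 29.8% lower over all genes. The list median was 0.01 and was below 0 under each of the 3 other scalings. The receptors MdERS2 and ERS1 rose by 1.30 and 0.62 on the log2 scale, and the signal carrier EIN2 by 0.84. EBF1, an F-box protein that removes EIN3-type factors, rose by 0.81. Of these factors, EIL2 rose by 0.72 and EIL3 fell by 1.20, to 49.8 ± 1.1 FPKM with SL against 116 ± 2.01 FPKM without. The receptors ETR2 and ETR1 fell by 0.50 and 0.28. All 8 calls were kept share-subtracted.

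Both GLB1 and ADH1-1, which plants induce when oxygen is short, fell with SL. GLB1, a haemoglobin, was at 70.0, 68.0 and 72.6 FPKM with SL and at 999, 974 and 1016 FPKM without. Its log2 change was -3.81 ± 0.07 (limma adjusted p = 3.83e-26) and -5.63 share-subtracted. ADH1-1 (LOC103428551), an alcohol dehydrogenase of ethanol fermentation, was at 16.3, 14.8 and 14.5 FPKM with SL and at 128, 130 and 128 FPKM without. It fell by 3.00, and by 4.64 share-subtracted. The T1_RA share equalled 77.7% of the SL level of GLB1 and 77.0% of that of ADH1-1. GAD1, which makes the amino acid GABA, rose by 0.74 to 645 ± 7.57 FPKM with SL, against 387 ± 8.37 FPKM without, and GAD2 fell by 1.25, or by 1.92 share-subtracted. Of 9 genes of fermentation and GABA metabolism, 3 rose, 5 fell and 1 did not pass, beside 37% higher and 29.8% lower over all genes. Share-subtracted, 2 rose and 5 fell, beside 33.1% and 33.4%. GAD3, one of the 3 that rose as deposited, was at 0.545 ± 0.05 FPKM with SL and was listed at 0 without SL. Its share-subtracted change was 0.

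The list of sugar and starch holds 18 named genes of starch, sorbitol, sucrose and hexose metabolism and transport. Of these 11 rose, 3 fell and 4 did not pass, beside 37% higher and 29.8% lower over all genes, with a median of 0.35. Share-subtracted, 9 rose and 4 fell, beside 33.1% and 33.4%. GBSSIa (LOC103437450), a granule-bound starch synthase, was at 143, 143 and 137 FPKM with SL and at 8.38, 9.62 and 10.4 FPKM without. That log2 change of 3.77 ± 0.06 was 3.98 share-subtracted. SDH2, a sorbitol dehydrogenase, averaged 292 ± 6.52 FPKM with SL and 46.3 ± 1.63 FPKM without. SDH1 and the hexokinase HXK1 rose by 0.64 and 1.54. The amylase AMY10 fell by 1.20 and the sucrose transporter SUT1 by 0.98. CWI, a cell wall invertase, was at 15.3 ± 0.72 FPKM with SL and 0.0732 ± 0.07 FPKM without. In CWI 98.4% of the SL level equalled the T1_RA share, and the log2 change of 3.92 came to 0.46.

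In the cell wall list 5 of 6 genes rose and 1 fell, beside 37% higher and 29.8% lower over all genes. The list median was 0.76 as deposited and 0.97 share-subtracted. XET02, a xyloglucan endotransglycosylase that cuts and rejoins wall polymers, was at 483, 470 and 464 FPKM with SL and at 77.1, 82.9 and 81.0 FPKM without. EXPA1 (LOC103447269), an expansin that loosens the wall, averaged 17.4 ± 1.18 FPKM with SL and 0.685 ± 0.28 FPKM without, a log2 change of 3.46. PG1, a polygalacturonase, rose by 0.79. XET01 fell by 1.27, or by 1.77 share-subtracted, so the 2 named endotransglycosylases moved in opposite directions.

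Of the 3 named genes of surface lipids, 2 rose and 1 fell, beside 37% higher and 29.8% lower over all genes. ACBP2, an acyl-CoA-binding protein, was at 683, 706 and 672 FPKM with SL and at 83.7, 80.8 and 80.6 FPKM without (log2 change 3.06 ± 0.07, limma adjusted p = 6.61e-24). MdGDSL, a GDSL-type lipase, averaged 151 ± 2.67 FPKM with SL and 23.3 ± 1.23 FPKM without. GPAT, a glycerol-3-phosphate acyltransferase, averaged 5.24 ± 0.40 FPKM with SL and 10.04 ± 0.34 FPKM without, a log2 change of -0.83. All 3 calls were kept share-subtracted.

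Defence genes split. PGIP1 (LOC103454277) and PGIP2 (LOC103454279) code for inhibitors of fungal polygalacturonases. PGIP1 was at 498, 508 and 482 FPKM with SL and at 3887, 3954 and 3927 FPKM without, and PGIP2 averaged 139 ± 6.59 FPKM with SL and 1073 ± 18.1 FPKM without. Their log2 changes were -2.98 and -2.94, and -5.69 and -5.42 share-subtracted, and 87.6% and 85.3% of their SL levels equalled the T1_RA share. MALD3 (LOC103450745), a lipid transfer protein known as an apple allergen, was at 22105, 22490 and 22371 FPKM with SL and at 8600, 8641 and 8531 FPKM without. It took 3.04% of all FPKM with SL and 1.24% without. The profilin GD4-1 rose by 3.56, PR-10c fell by 0.88, and PR5 rose by 0.44. PR1a (LOC103436302) was at 42.5, 44.7 and 49.0 FPKM with SL and at 0.111, 0.596 and 0.451 FPKM without, a log2 change of 5.08. Its SL level equalled the T1_RA share, which PR1a was among the genes to set. The share-subtracted change of PR1a, 0.34, did not pass (limma adjusted p = 0.395). Of 10 genes in this list, 6 rose, 3 fell and 1 did not pass, beside 37% higher and 29.8% lower over all genes. Share-subtracted, 5 rose and 4 fell, beside 33.1% higher and 33.4% lower over all genes. Genes that lie close within a family, PGIP1 and PGIP2 for example, can have their reads split between them.

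Heat shock and dehydrin genes, which protect proteins and membranes under stress, are described by their members. Hsp2 (LOC103435013) was at 480, 469 and 480 FPKM with SL and at 34.3, 36.4 and 35.1 FPKM without, a log2 change of 3.72 ± 0.03 and of 3.85 share-subtracted. HSP90.5 rose by 1.31. Among factors, HSF6 and the gene LOC103424358, also named HSF1, rose by 3.58 and 3.74, with 89.7% and 85.0% of their SL levels equal to the T1_RA share and share-subtracted changes of 0.72 and 1.42. HSF2 and the gene with HSF1 as its symbol fell by 0.58 and 0.62. Of the 8 heat shock genes, 4 rose, 3 fell and 1 did not pass, in both versions of the data. Over all genes 37% were higher and 29.8% lower as deposited.

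Of 5 dehydrins, 2 rose and 3 fell as deposited, beside 37% higher and 29.8% lower over all genes. Share-subtracted, 1 rose and 4 fell, beside 33.1% and 33.4%. DHN2 (LOC103401165) was at 2037, 2030 and 2059 FPKM with SL and at 3749, 3933 and 3853 FPKM without, and fell by 0.91, or by 3.01 share-subtracted. DHN8 fell by 1.71, or by 3.08 share-subtracted. DHN5 (LOC103401182) averaged 85.0 ± 2.58 FPKM with SL and 17.1 ± 1.69 FPKM without. Its log2 change was 2.26 as deposited and -1.83 share-subtracted, and 95.4% of its SL level equalled the T1_RA share. DHN10 rose by 0.34 with a limma adjusted p of 0.0303. That call of DHN10 was lost without SL a, SL c, no SL a or no SL c, with limma adjusted p-values of 0.0516 to 0.115. It was also lost with RLE scaling (limma adjusted p = 0.0618), with scaling to one total (limma adjusted p = 0.132) and with a pseudocount of 0.1 (limma adjusted p = 0.455).

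In the flavonoid and dihydrochalcone list 7 of 17 genes rose, 5 fell and 5 did not pass, beside 37% higher and 29.8% lower over all genes. The list median was 0.07. Share-subtracted, 5 rose and 6 fell, beside 33.1% and 33.4%. UGT88F1, which adds glucose to phloretin to make phloridzin, was at 364 ± 2.97 FPKM with SL and 152 ± 2.49 FPKM without, a log2 change of 1.26. The anthocyanidin reductase ANR2a rose by 2.78, and the flavanone hydroxylase MdF3H fell by 0.33. UGT71K1 averaged 15.7 ± 0.19 FPKM with SL and 5.56 ± 0.22 FPKM without, a log2 change of 1.35 that was -0.46 share-subtracted. UGT71A15 fell by 0.39, and by 1.35 share-subtracted.

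**Figure D3:**
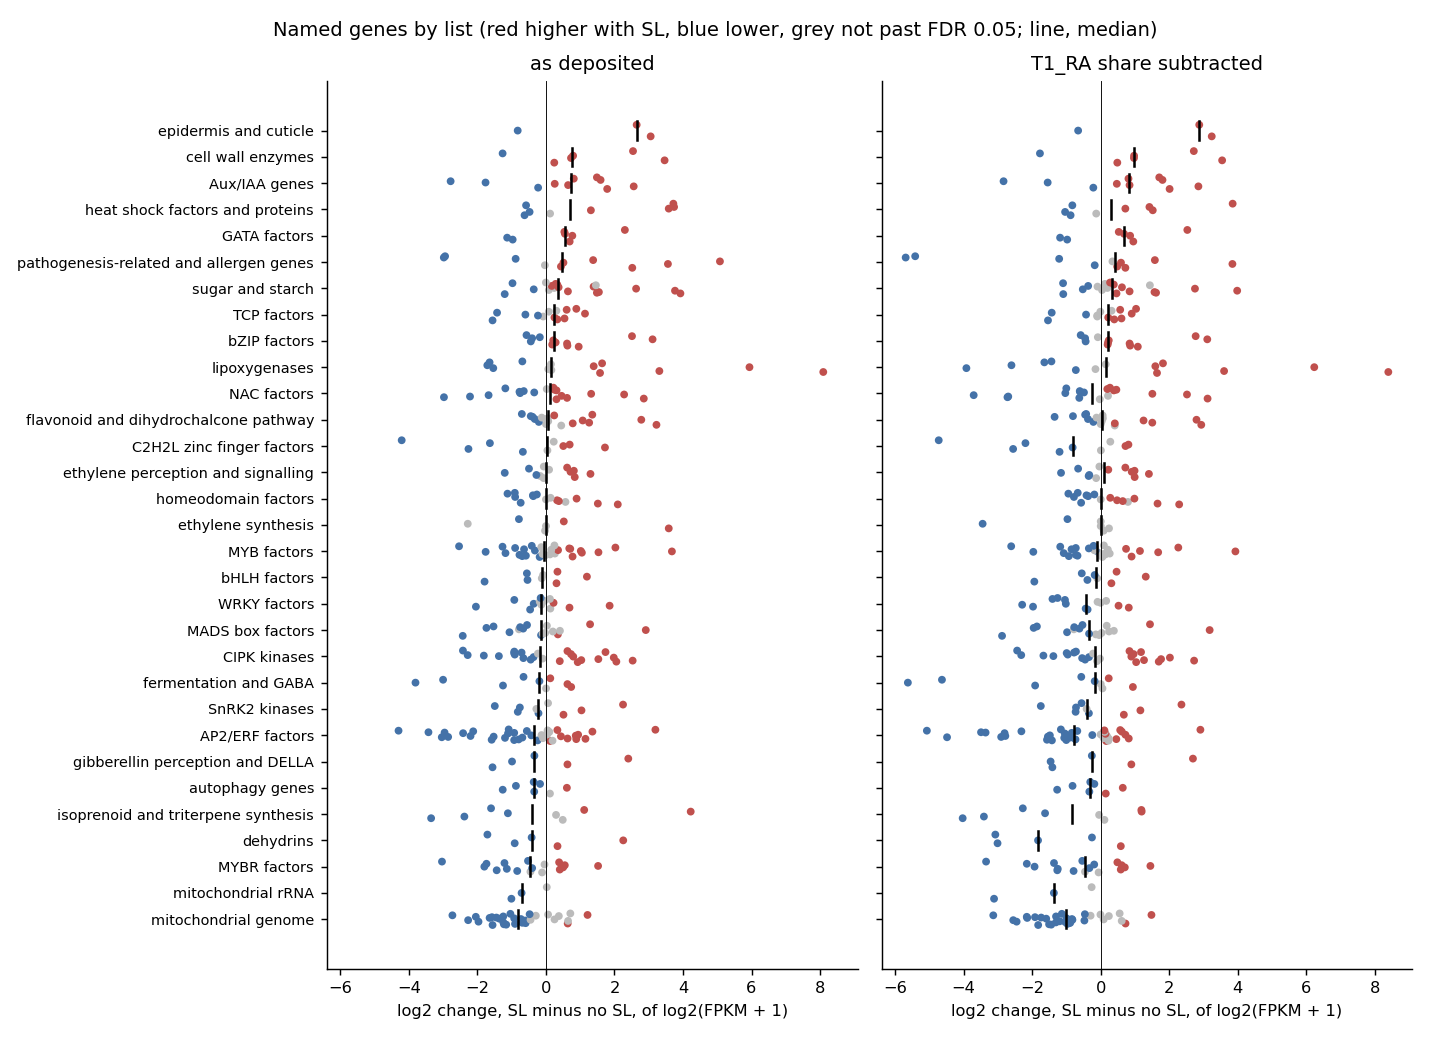
Log2 change with SL in DCA_CF at T1 (x axis, SL minus no SL, of log2(FPKM + 1)) for the members of 31 lists of named genes, as deposited (left) and share-subtracted (right). Points are genes, red where higher and blue where lower at FDR 0.05, grey otherwise, and bars are list medians; the median of the mitochondrial genome list is -0.82 as deposited and -1.02 share-subtracted.

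Aux/IAA genes code for repressors of the auxin response. Of 10 measured, 7 rose and 3 fell in both versions of the data, beside 37% higher and 29.8% lower over all genes as deposited. IAA12 was at 29.1, 28.3 and 29.2 FPKM with SL and at 3.93, 4.32 and 3.95 FPKM without, a log2 change of 2.56. IAA8 averaged 2.12 ± 0.09 FPKM with SL and 20.5 ± 1.27 FPKM without, and IAA5 4.96 ± 0.90 FPKM with SL and 19.1 ± 1.02 FPKM without. The list median was 0.73 as deposited and 0.83 share-subtracted. Of the 5 genes for gibberellin receptors and DELLA repressors, 2 rose and 3 fell in both versions. The DELLA genes went opposite ways, with RGL2a at 26.4 ± 1.67 FPKM with SL and 4.18 ± 0.15 FPKM without, and RGL2b at 5.06 ± 0.47 FPKM with SL and 16.9 ± 1.04 FPKM without.

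Among 38 measured transcription factors of the AP2/ERF class, 20 fell, 10 rose and 8 did not pass, beside 29.8% lower and 37% higher over all genes. By at least 2-fold 13 fell and 3 rose, beside 9.3% lower and 13.1% higher over all genes. The median of the class was -0.34. Share-subtracted, 22 fell and 9 rose, beside 33.4% and 33.1%. AP2D24 (LOC103449153) was at 3.54, 3.27 and 3.67 FPKM with SL and at 86.1, 89.3 and 87.6 FPKM without, a log2 change of -4.30 ± 0.07, or -5.08 share-subtracted. AP2D50 averaged 13.4 ± 0.27 FPKM with SL and 117 ± 3.85 FPKM without, and AP2D47 15.4 ± 0.87 FPKM with SL and 127 ± 2.78 FPKM without. AP2D50 changed by -3.04 as deposited and -4.49 share-subtracted. AP2D16 fell by 3.43. AP2D29 rose, at 15.2 ± 1.08 FPKM with SL and 0.765 ± 0.13 FPKM without.

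The zinc finger gene C2H2L22 was at 0.404, 0.446 and 0.527 FPKM with SL and at 23.5, 25.9 and 28.9 FPKM without, a log2 change of -4.21, or -4.73 share-subtracted. C2H2L23 moved by 1.72 as deposited and by -0.82 share-subtracted, with 98.2% of its SL level equal to the T1_RA share. MYBR7 averaged 19.9 ± 1.57 FPKM with SL and 170 ± 2.06 FPKM without, and 9 of 17 MYBR genes fell and 5 rose, with 10 lower and 5 higher share-subtracted. MYB19 was at 116 ± 2.19 FPKM with SL and 8.17 ± 0.32 FPKM without. Of 28 MYB genes, 9 rose and 12 fell, and 6 rose and 12 fell share-subtracted. NAC1 rose by 2.28 to 255 ± 3.76 FPKM with SL, against 51.7 ± 2.58 FPKM without, and NAC10 fell by 2.98. The NAC list, with 9 of 18 up and 8 down as deposited and 7 up and 9 down share-subtracted, had a median of 0.12 as deposited and of -0.26 share-subtracted. Of 13 WRKY genes 3 rose and 5 fell as deposited, and 2 rose and 8 fell share-subtracted. Beside these counts of MYBR, MYB, NAC and WRKY genes stand 37% higher and 29.8% lower over all genes, or 33.1% and 33.4% share-subtracted. WRKY11, at 24.5 ± 1.62 FPKM with SL and 6.03 ± 0.52 FPKM without, had 69.5% of its SL level equal to the T1_RA share, and its log2 change of 1.86 came to 0.52.

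Kinase lists were mixed, with 11 of 24 CIPK genes up and 11 down, and 3 of 9 SnRK2 genes up and 4 down. Share-subtracted, these were 10 up and 11 down for CIPK and 3 up and 5 down for SnRK2. CIPK28 was at 408 ± 10.95 FPKM with SL and 141 ± 0.61 FPKM without. CIPK15 was at 15.5 ± 0.56 FPKM with SL and 79.4 ± 0.19 FPKM without. Counts of the kinase lists and of those below stand beside 37% higher and 29.8% lower over all genes, or 33.1% and 33.4% share-subtracted. The remaining lists are described by counts alone. GATA factors had 5 of 7 up and 2 down, bZIP factors 8 of 12 up and 4 down, and TCP factors 6 of 13 up and 4 down. Homeodomain factors had 5 of 15 up and 7 down, MADS box factors 3 of 17 up and 8 down, bHLH factors 3 of 8 up and 3 down, and C2H2L factors 3 of 9 up and 4 down. Of 7 autophagy genes 1 rose and 5 fell. Share-subtracted, the numbers up and down were 5 and 2 for GATA, 8 and 3 for bZIP, 6 and 3 for TCP and 6 and 7 for homeodomain factors. They were 2 and 8 for MADS box, 3 and 4 for bHLH and 2 and 5 for C2H2L factors, and 2 and 5 for autophagy genes.

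Of 32 genes of the mitochondrial genome, 23 fell, 2 rose and 7 did not pass, beside 29.8% lower and 37% higher over all genes, with a median of -0.82, and 24 fell and 2 rose share-subtracted. The cytochrome oxidase subunit cox1 was at 2.21, 3.87 and 3.03 FPKM with SL and at 14.8, 15.4 and 13.7 FPKM without, and the ATP synthase subunit atp1 fell by 1.56. The rises were rps19, by 1.21, and atp9, by 0.63. Of 3 ribosomal RNAs of the same genome 2 fell and 5rrn did not pass, in both versions, with 18rrn at 173 ± 7.97 FPKM with SL and 348 ± 17.0 FPKM without and 26rrn lower by 0.71. Share-subtracted changes were -3.11 for 18rrn and -1.37 for 26rrn. How RNA without long poly(A) tails entered these libraries was not tested.

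Several large changes fell on genes outside these lists. OMT1 (LOC103426312), an O-methyltransferase, was at 724, 732 and 712 FPKM with SL and at 18.2, 16.4 and 15.6 FPKM without, a log2 change of 5.35 ± 0.04 (limma adjusted p = 3.72e-35). CAS2 was at 668, 653 and 670 FPKM with SL and at 23.9, 22 and 23.7 FPKM without, a change of 4.78. COL6, a CONSTANS-like gene, averaged 43.6 ± 0.22 FPKM with SL and 1.23 ± 0.33 FPKM without. SS was at 72.2, 72.3 and 72.1 FPKM with SL and at 1433, 1437 and 1419 FPKM without, a log2 change of -4.29. Every value of these 4 genes in one group lay outside the range of the other.

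The largest falls of all were in genes without a name. LOC103400792 was at 6.43, 4.28 and 4.72 FPKM with SL and at 3048, 3066 and 3041 FPKM without, a log2 change of -8.97. LOC103449190 was at 0.452, 0.397 and 1.89 FPKM with SL and at 328, 318 and 322 FPKM without. LOC103427024 was at 495, 475 and 510 FPKM with SL and at 0.537, 0 and 0.219 FPKM without. In LOC103407010, with 3055, 3018 and 3148 FPKM with SL, the libraries without SL read 0, 0 and 355 FPKM, so its change of 8.76 carries an SE of 2.42. The elongation factor eF-1alpha was also uneven, with 186, 184 and 185 FPKM with SL and 32.0, 0 and 0 FPKM without. In all, 381 genes were listed at 0 in at least 1 library and at 10 FPKM or more in another of the same group. The test was passed by 44 of them, beside 21981 of all 32923 genes. Values of the 381 genes depend on such zeros. Genes with at least 1 FPKM in all 3 SL libraries and listed at 0 in all 3 without SL numbered 227, and 81 were the other way round. Share-subtracted these numbers were 146 and 151.

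The SL response of DCA_CF at T1 was set beside those of ULO at T1, RA at T1 and DCA_CF at T2, none of which shares a control library with it. The gene-wise changes correlated with those in ULO at T1 at r = 0.72 as deposited and 0.86 share-subtracted, over 32923 genes that are not independent. With RA at T1 r was 0.23 and 0.46, and with DCA_CF at T2 it was 0.26 and 0.33. Of the 4314 genes that rose 2-fold, 2207 (51.2%) also did so in ULO at T1, which is 75.5% of the 2922 genes that rose there. Of the 3061 that fell, 2254 (73.6%) fell in ULO at T1 too, 52.5% of its 4292. Opposite 2-fold changes in ULO were found for 160 of the rises and 3 of the falls. Share-subtracted, 2357 rises (58.7%) and 3094 falls (74.4%) were shared with ULO, 80.7% and 72.1% of those there, and 10 rises and 2 falls were opposite. With DCA_CF at T2 686 rises (15.9%) and 964 falls (31.5%) were shared, 50.6% and 21.6% of those at T2, and 675 rises and 45 falls were opposite. Share-subtracted, 684 rises (17%) and 1328 falls (31.9%) were shared with T2, 50.4% and 29.8% of those there, and 582 and 68 were opposite. With RA at T1 1120 rises (26%) and 738 falls (24.1%) were shared, 46.4% and 22.8% of those in RA, and 598 rises and 149 falls were opposite. Share-subtracted, 1243 rises (31%) and 1314 falls (31.6%) were shared with RA, 51.5% and 40.7% of those there, and 101 and 139 were opposite. The share-subtracted comparison with RA uses T1_RA on both sides. The share was set on genes required to be low in ULO at T1 and in DCA_CF at T2, with and without SL. A closer match to these responses after subtraction is thus partly built in. It is no separate support for the share.

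**Figure D4:**
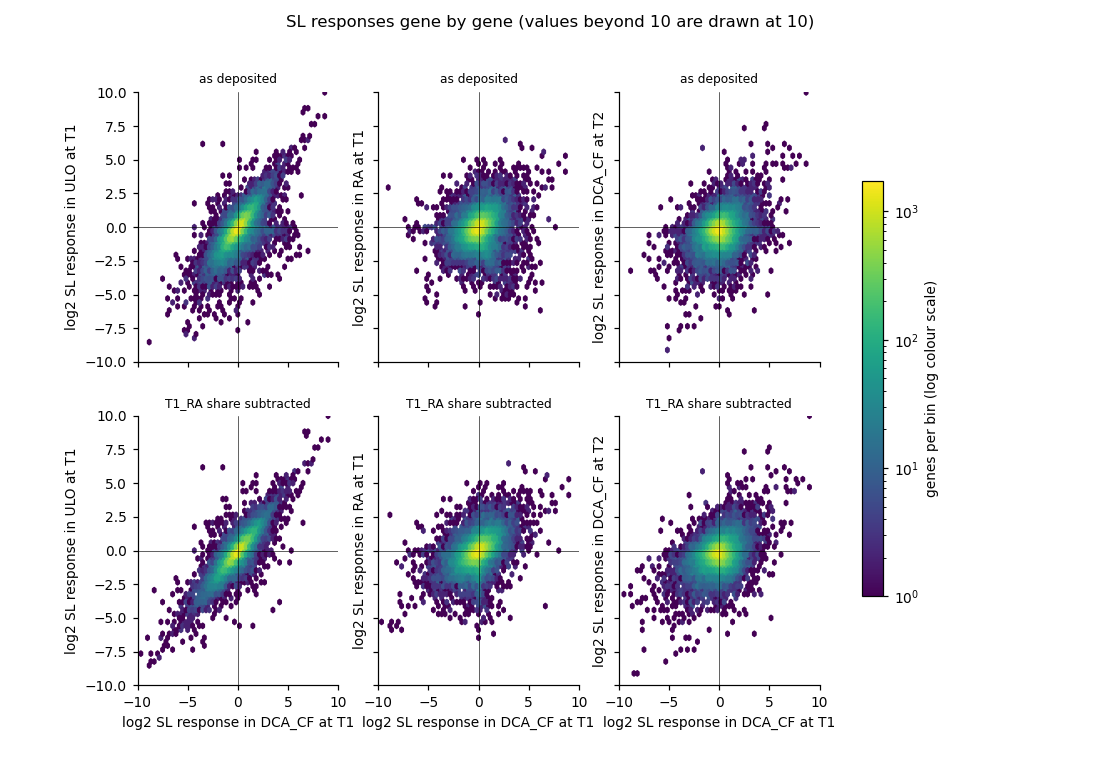
Log2 SL response of each of 32923 genes in DCA_CF at T1 (x axis), as deposited (top) and share-subtracted (bottom), against the log2 SL response in ULO at T1, RA at T1 and DCA_CF at T2 (y axes, left to right). Colour is the number of genes per bin on a log scale; the correlation with ULO at T1 is 0.72 in the top panel and 0.86 in the bottom one.

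Tests of the difference itself found many genes. The SL response differed between DCA_CF and ULO at T1 in 13660 genes (41.5%), and in 10731 (32.6%) share-subtracted. It differed from RA at T1 in 19431 genes (59%), or 18668 (56.7%), and from DCA_CF at T2 in 21138 (64.2%), or 20584 (62.5%). Against ULO, 10007 genes had a higher response in DCA_CF and 3653 a lower one, so that 73.3% were higher. That share was 67.6% share-subtracted, and as deposited it was 57.6% with RLE scaling and 56.4% with upper quartile scaling. Against T2, 68.5% of the called differences were higher, or 54.3% with RLE and 54.7% with upper quartile scaling. These scalings took the median difference of all genes to 0.05 and 0.04 for ULO, where it was 0.16, and to 0.07 for T2, where it was 0.30. A difference of at least 2-fold from ULO was found for 2798 genes as deposited and 1293 share-subtracted. The number of genes that rose 2-fold with SL here and lay at least 2-fold above all 3 other responses was 854 as deposited and 245 share-subtracted. The number that fell 2-fold and lay at least 2-fold below all 3 was 162 as deposited and 223 share-subtracted.

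Named genes show both kinds of pattern. HMG1 fell in ULO at T1 as well, by 2.85, and there it was at 208 FPKM with SL and 1512 FPKM without. In DCA_CF at T2 HMG1 was at 263 FPKM with SL and 273 FPKM without. LOX5a responded in all 4 settings, with 1635 FPKM with SL and 62.6 FPKM without in ULO at T1, 900 FPKM with SL and 38.2 FPKM without in RA at T1, and 1434 FPKM with SL and 421 FPKM without in DCA_CF at T2. CAS2 had a larger response in DCA_CF at T1 than in the other 3, by 2.62 over ULO, 4.54 over RA and 4.35 over T2 as deposited. These differences of CAS2 were 2.76, 4.67 and 4.48 share-subtracted. Hsp2 likewise stood 1.81, 3.45 and 3.98 above the others. EXPA1 rose with SL at T1 and fell by 6.06 at T2, where it was at 2.34 FPKM with SL and 221 FPKM without. DHN2 fell at T1 and rose by 4.22 at T2, to 4628 FPKM with SL against 248 FPKM without.

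For PPO the 3 other responses were all below 0, at -1.53 in ULO at T1, -0.48 in RA at T1 and -0.62 in DCA_CF at T2. PPO was at 5.67 FPKM with SL and 18.2 FPKM without in ULO at T1, and at 936 FPKM with SL and 1308 FPKM without in RA at T1. Its difference from ULO was 4.95 as deposited and 1.73 share-subtracted. PR1a had a difference from ULO of 4.01 as deposited and of -0.73 share-subtracted, which no longer passed (limma adjusted p = 0.274). NAC10 was among the genes that fell with SL in DCA_CF and rose in RA, at 15.3 FPKM with SL and 0.226 FPKM without in RA at T1, and this difference of -6.73 was -6.48 share-subtracted.

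**Figure D5:**
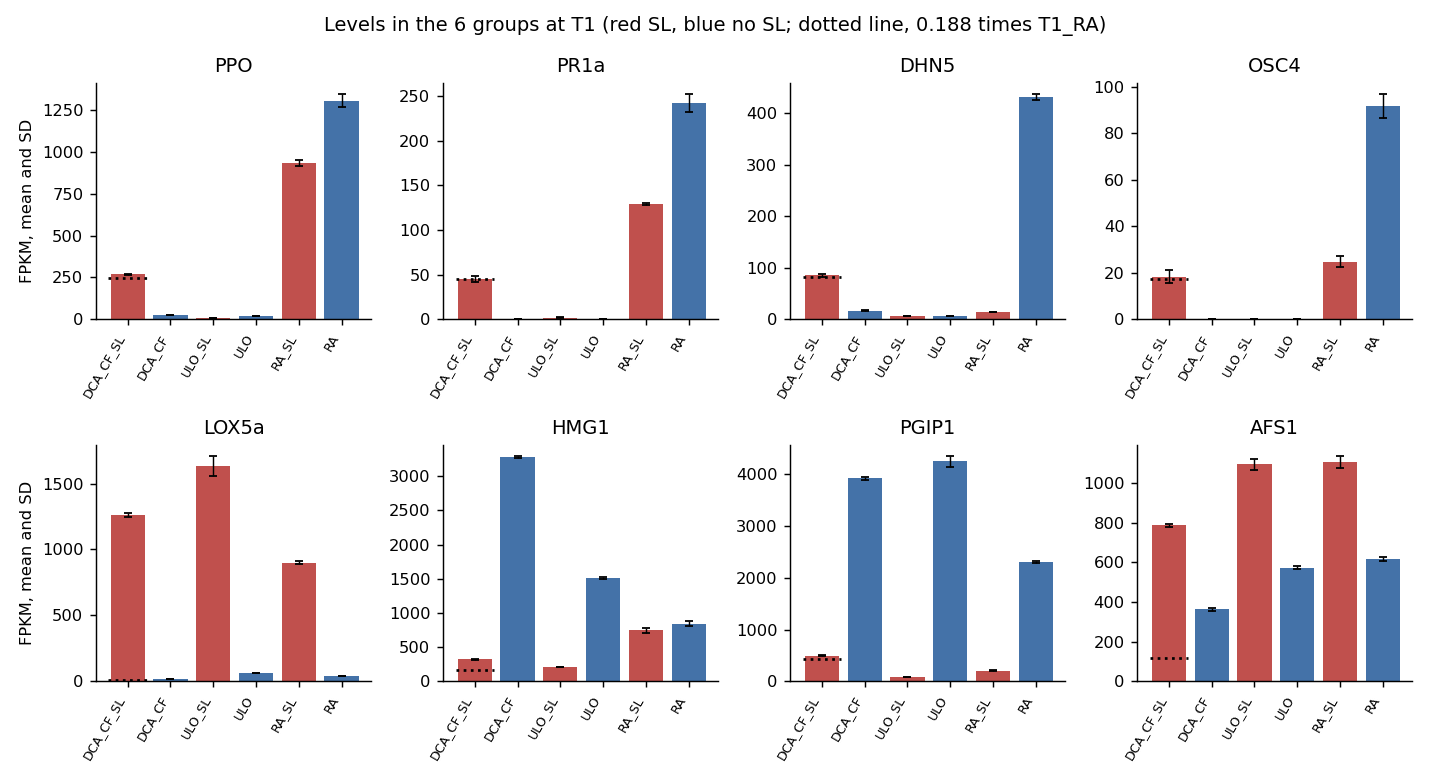
Mean FPKM and SD (n = 3) at T1 in DCA_CF, ULO and RA, each with SL (red) to the left of no SL (blue), for 8 genes, with bars starting at 0. The dotted line on the first bar marks 0.188 times T1_RA. It lies at the top of the bar for PPO, PR1a, DHN5 and OSC4, near the top for PGIP1, and near the bottom for LOX5a. PPO, PR1a and OSC4 are among the genes that set the factor of 0.188.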

How the data were processed

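Total RNA of peel went into libraries that keep no strand and were read on an Illumina instrument, per the labels' protocols, so antisense transcripts cannot be told apart. Tools listed in the submitters' processing notes are HISAT2, StringTie and DESeq2, without versions, and the genome build is not given in the sources used here. The deposited table holds FPKM values for 36 libraries. Columns headed DCA were matched to the DCA_CF titles by time, SL tag and letter.

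FPKM are not counts, so limma 3.58.1 (R 4.3.3) was run on log2(FPKM + 1) with 1 mean per group over all 36 libraries and variances that follow the mean. P-values were adjusted over all genes kept (at least 1 FPKM in at least 3 libraries), with a threshold of 0.05. The procedure was tested on simulated data. Tables were made with Python 3.11.15, pandas 2.3.3 and matplotlib 3.10.9.

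Names come from the table's symbols and from a RefSeq gene table of apple, which held 34074 of the identifiers. Of the genes tested 571 (1.73%) carry a name. Among the named genes 79.3% were called as deposited. By at least 2-fold 17.9% of them rose and 17.7% fell, beside 13.1% and 9.3% over all genes. Lists hold only named genes, so the shares over all genes are not those of the set the lists came from. Genes, members and lists were chosen with earlier results of these data known, and the 31 lists were completed from names in the table. Named in the text are, per direction, up to 12 named genes of largest change whose groups did not overlap and whose log2 level averaged 2 or more, up to 2 called members per list, and up to 5 per difference between SL responses. PPO, AFS1, ACS1, ACO1, ADH1-1 and the largest changes of any gene were added. Other members of a list named beside these were picked after their values were seen.

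Alternatives were RLE and upper quartile scaling, scaling to one total, a pseudocount of 0.1, no filter, the compared libraries alone, the replicate letter as a block and leaving out each library. Subtraction of a T1_RA share of 0.188 from the SL libraries, also at 0.9 and 1.1 of its size, was chosen once the data had been seen. The letters were not taken as pairs. A further gene is not reported here. No 2 libraries of either compared group held identical values, and the other groups were not checked in this way. This does not show that the libraries came from separate fruit. Each was counted as a replicate.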

Additional observations from a re-analysis of the deposited data

Results flagged for a closer look

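The median ratio of T1_DCA_CF_SL to T1_RA over 165 genes high in T1_RA was 0.188. The T1_DCA_CF_SL libraries are part of the comparison, and T1_RA is outside it. For T1_DCA_CF over 170 genes chosen in the same way the median ratio was 0.00162.

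The SL response of some named genes in DCA_CF at T1 differed from that in another setting by limma's test of the difference (adjusted over all genes). Against RA at T1, the log2 differences were -6.73 for NAC10, -4.40 for SS, -3.54 for GLB1, -3.40 for UGE and -3.30 for DFR, and share-subtracted -6.48, -4.71, -5.36, -3.12 and -3.02. They were 4.999 for HSF6, 5.98 for PR1a, 6.08 for OSC4, 7.08 for DHN5 and 7.52 for MdACS-5A, and share-subtracted 2.13, 1.24, 3.05, 2.99 and 4.17.

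Against ULO at T1, the differences were -1.88 for UGE, -1.68 for AP2D4, -1.45 for AP2D36, -1.29 for COL9 and -1.20 for TLP5, and share-subtracted -1.61, -1.60, -2.03, -1.64 and -1.01. They were 2.86 for DOF7, 3.49 for LOC103424358, 3.56 for HSF6, 4.01 for PR1a and 4.95 for PPO. Share-subtracted these 5 were 0.67, 1.17, 0.69, -0.73 and 1.73, of which DOF7, HSF6 and PR1a no longer passed.

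Against DCA_CF at T2, the differences were -5.13 for DHN2, -4.02 for PG1, -3.87 for AP2D47, -3.74 for SS and -3.30 for HMG1, and share-subtracted -7.23, -3.83, -4.28, -4.05 and -3.98. They were 4.62 for DOF7, 4.62 for COL6, 5.43 for AP2D29, 6.00 for eF-1alpha and 9.52 for EXPA1. Share-subtracted these 5 were 2.43, 4.89, 5.14, 6.24 and 9.60. In eF-1alpha 2 of the 3 libraries without SL were listed at 0.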

How the results depend on the processing

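The counts of genes called at FDR 0.05 (21981), called and changed 2-fold (7375) and called in each difference of responses stayed within 1.5 times under all alternatives run, and the share of higher genes among those called with SL was 49% to 56.3%. Among called differences of responses it was 53.7% to 60.5% for RA, 56.4% to 75.6% for ULO and 54.3% to 70.8% for T2. A pseudocount of 0.1 gave the largest 2-fold count, 10393. Leaving out a library gave 21012 to 21113 called genes and 7315 to 7413 at 2-fold. Residual correlations of libraries with the same letter were 0.0218, -0.000695 and 0.00716 for a, b and c, beside -0.0188 to 0.0113 for unlike letters. No pairing was seen in these values, which do not settle whether the letters mark pairs. With the letter as a replicate block 21953 genes were called. Of 139 genes named by the rule, none changed direction under another scaling, pseudocount, filter or model or with a library left out. Medians of the 31 lists moved by more than the spread between replicates in 17 under scaling to one total, 7 with RLE, 6 with a pseudocount of 0.1 and 16 after subtraction. Among the 139 genes the subtraction reversed DHN5 (-1.83, and -0.24 and -4.17 at 0.9 and 1.1 of its size) and C2H2L23 (-0.82, -0.28 and -1.17), and outside them UGT71K1 (-0.46). The value of C2H2L23 at 0.9 did not pass (limma adjusted p = 0.0627). At 1.1 of its size the subtraction also reversed PR1a (-0.45) and PPO (-4.16). CWI (-0.10, limma adjusted p = 0.361) and MdACS-5A (-0.029, limma adjusted p = 0.73) fell below 0 there but did not pass. The difference from ULO of PR1a became -0.73 after subtraction. At 1.1 of the share that of PR1a was -1.53, that of PPO -2.63, that of DOF7 -0.18 and that of HSF6 -0.20. Those of DOF7 and HSF6 did not pass (limma adjusted p = 0.824 and 0.694). The cause was not tested. Depth is unknown, so low levels carry no counting limit.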
